A study of Homo sapiens with 3 samples.

Results

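The ANKRD1-high cells of ldR-H460 were 729 cells of a cultured human lung cancer line, chosen by their own ANKRD1 UMIs. A cell was taken if it had at least 1000 UMIs in all and at least 3 UMIs of ANKRD1 (a UMI is one tagged RNA molecule). They made up 15.4% (95% exact Clopper-Pearson interval 14.4 to 16.4%) of the 4738 ldR-H460 cells with at least 1000 UMIs, in a series of 14638 cells. The cells they are set against came from the same library, had at least 1000 UMIs and no UMI of ANKRD1, and numbered 2631 (55.5%). The 1378 cells with 1 or 2 ANKRD1 UMIs (29.1%) lay between the classes, and 218 cells under 1000 UMIs were left out. H460 is an established line from a human large-cell lung carcinoma. The labels name mdR-H460 and ldR-H460 as mid-term and long-term derivatives of it, obtained in a reprogramming procedure that used irradiated human fibroblasts as feeder layer and source of conditioned medium. Each of the 3 cultures was profiled as 1 library, untreated as far as the labels say, and the labels do not say whether a derivative is 1 clone.

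ANKRD1, also called CARP, is an ankyrin repeat protein that binds titin in striated muscle and acts in the nucleus as a transcriptional cofactor. In epithelial and cancer cells its gene is, with CYR61 and CTGF, one of the standard readouts of YAP and TAZ. These coactivators enter the nucleus when the Hippo kinase cascade is inactive, for example in spread cells under mechanical tension, and bind DNA through the TEAD factors, often beside AP-1 sites. The gene lies on chromosome 10, 90912096 to 90921276, minus strand (GRCh38, GENCODE release 29).

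The promoters below carry motifs of these factors and belong to ANKRD1 and to 3 genes that were higher in the ANKRD1-high cells. They are shown to give the letters behind the motif counts. Each is the 250 bases before the annotated start in RefSeq, build GRCh38.p14, in the gene's own direction. Capitals mark GGAATG, the TEAD motif, and TGANTCA, the AP-1 motif.
ANKRD1, chr10:90921088-90921337, minus strand: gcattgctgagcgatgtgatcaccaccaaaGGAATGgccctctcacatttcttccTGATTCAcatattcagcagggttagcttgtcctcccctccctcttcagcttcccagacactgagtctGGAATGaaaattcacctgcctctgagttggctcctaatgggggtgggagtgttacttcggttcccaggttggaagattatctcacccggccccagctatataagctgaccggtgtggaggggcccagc
CTGF (CCN2), chr6:131951373-131951622, minus strand: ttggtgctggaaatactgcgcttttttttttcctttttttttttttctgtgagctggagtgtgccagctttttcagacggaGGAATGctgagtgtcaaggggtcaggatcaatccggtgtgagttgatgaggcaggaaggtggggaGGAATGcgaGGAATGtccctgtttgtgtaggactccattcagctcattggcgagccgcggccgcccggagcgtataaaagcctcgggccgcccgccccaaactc
DKK1, chr10:52314031-52314280, plus strand: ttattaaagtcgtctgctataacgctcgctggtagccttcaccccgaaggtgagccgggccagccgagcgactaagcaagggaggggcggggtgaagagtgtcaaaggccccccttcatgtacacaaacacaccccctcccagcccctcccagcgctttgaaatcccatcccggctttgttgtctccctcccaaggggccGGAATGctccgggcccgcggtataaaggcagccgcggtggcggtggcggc
CPA4, chr7:130292911-130293160, plus strand: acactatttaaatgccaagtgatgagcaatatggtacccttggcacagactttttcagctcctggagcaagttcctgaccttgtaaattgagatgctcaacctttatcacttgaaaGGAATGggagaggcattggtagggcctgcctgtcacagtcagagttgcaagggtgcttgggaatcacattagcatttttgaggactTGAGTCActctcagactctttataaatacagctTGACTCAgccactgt

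ANKRD1 held 2 TEAD motifs, 220 and 128 bases before the start, with an AP-1 motif 195 bases before it. CTGF held 3 TEAD motifs, at 169, 104 and 95 bases. DKK1 held 1 at 50 bases, and CPA4 held 1 at 134 bases with AP-1 motifs at 48 and 15 bases. Promoters were looked up for 17 genes (ANKRD1, CTGF, CYR61, DOCK5, IGFBP3 and the 12 genes with the highest ratios among those at 10 CPM), of which 11 were in the table and 5 held a TEAD motif. The fifth was HSPB3. Searched in windows of 250 bases before and 50 after the start on both strands, GGAATG stood in 14.0% of all 35116 promoters and TGANTCA in 7.71%. These shares count promoters, while the 5 of 11 counts genes. Some of the 11 genes, such as NEDD9 and PLAU, had more than 1 promoter searched, so the values are not like measures. The CArG box bound by SRF, present in 1.29%, was in none of the 11. A match of letters is not a measured binding site.

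ANKRD1 UMIs were spread very unevenly over ldR-H460 cells. The 729 ANKRD1-high cells held 4055 of the 5864 ANKRD1 UMIs of the cells with at least 1000 UMIs (69.2%), against 15.6% of all UMIs. Of them, 269 had exactly 3 ANKRD1 UMIs, 238 had 4 or 5, and 222 had 6 or more. The median was 4 and the highest 49, and 82 cells had 10 or more. Just outside the threshold lay 431 cells with exactly 2 and 947 with 1. Cells with exactly 3 had a median of 2.40 ANKRD1 UMIs per 10000 UMIs, and cells with exactly 2 had 1.62, so the threshold divides a continuous range. These values chose the cells and are a description.

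With every cell thinned to 5000 UMIs (435 shallower ldR-H460 cells left out), the ANKRD1 count per cell had a variance 3.12 times its mean. The median of that ratio over the 1293 genes of like mean was 1.05. C15orf48 (4.24) was the one gene of like mean above ANKRD1. Next came DEFB1 (2.64), LINC01433 (2.43), CYR61 (2.37), SERPINE2 (2.27), SOD2 (2.15), CTGF (2.12), NR4A1 (1.95) and IGFBP3 (1.94). Of these CYR61, CTGF and IGFBP3 are YAP and TAZ targets.

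The same rule found few cells in the other cultures. It took 9 of 4167 H460 cells with at least 1000 UMIs (0.216%, 0.0988 to 0.410%), 69 of 4566 mdR-H460 cells (1.51%, 1.18 to 1.91%) and the 15.4% of ldR-H460. At 5000 UMIs per cell, 3 or more ANKRD1 UMIs were found in 0.0260% of cells in H460, 0.722% in mdR-H460 and 5.82% in ldR-H460, and at least 1 in 1.19%, 4.82% and 28.98%. Over a whole library, ANKRD1 had 2.37 CPM (UMIs per 1000000) in H460, 11.6 CPM in mdR-H460 and 97.3 CPM in ldR-H460. The level was thus highest in ldR-H460 on each of these measures. With 1 library per culture and cells that are not replicates, no p-value was computed here or below. All intervals cover counting error only. All cells are of 1 line, so no cell type that should lack ANKRD1 was at hand as a measure of free RNA. The lowest level in a cluster of ldR-H460 cells, described further on, was 21.6 CPM at a median of 12350 UMIs.

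**Figure D1:**
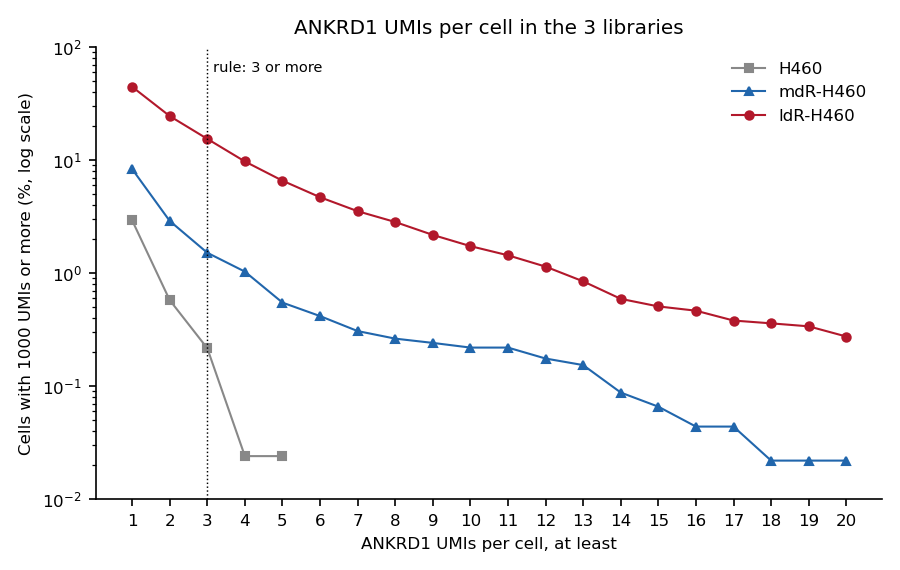
Share of cells with at least the number of ANKRD1 UMIs given on the horizontal axis, among cells with 1000 UMIs or more, in percent on a log scale, for H460 (squares), mdR-H460 (triangles) and ldR-H460 (circles). At the dotted line of 3 UMIs the shares are 0.216%, 1.51% and 15.4%, and the ldR-H460 line is the highest throughout.

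Sequencing depth was close in the ldR-H460 classes compared. ANKRD1-high cells had a median of 12471 UMIs and 2651 genes, and cells without ANKRD1 UMIs had 12569 UMIs and 2709 genes. Mitochondrially encoded genes took 6.80% of UMIs in ANKRD1-high cells and 6.78% in cells without ANKRD1 UMIs. The pooled classes held 9432377 and 33186744 UMIs. No doublet caller was run. Cells above the 95th percentile of UMIs were 6.58% of the ANKRD1-high cells and 4.71% of the cells without ANKRD1 UMIs. The ldR-H460 library shared 36 cell barcodes with H460 and 24 with mdR-H460, of which 5 and 1 belonged to ANKRD1-high cells.

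The cells kept the keratins of a carcinoma line, and most fibroblast markers were not among the genes listed for ldR-H460. KRT8 stood at 688 CPM in ANKRD1-high cells and 423 CPM in cells without ANKRD1 UMIs, KRT18 at 1652 and 1034 CPM, and KRT7 at 149 and 93.5 CPM. Of EPCAM and CDH1, which define many epithelial cells, EPCAM had no UMI in the ANKRD1-high cells and CDH1 was not listed. The feeder cells named in the labels are fibroblasts. Of 16 fibroblast markers 6 were listed, and all 6 had a UMI in the ANKRD1-high cells. Their summed level was 6.997 CPM, against 5.21 CPM in cells without ANKRD1 UMIs. COL3A1 was the highest of them at 3.71 CPM, against 2.92 CPM, while DCN, LUM, PDGFRA, THY1, FAP and POSTN were not listed and stand at 0. Of 8 muscle markers CNN1, MYH11, DES, TNNT2 and MYOD1 were not listed either. The 3 listed, ACTA2, MYL9 and ACTC1, summed to 9.12 CPM in ANKRD1-high cells and 7.53 CPM in cells without ANKRD1 UMIs. ACTA2 was the highest of them, at 7.63 and 6.06 CPM.

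Most genes differed little between the classes. Of 6130 genes that reached 10 CPM in the higher class, ANKRD1 left out, 5899 (96.2%) lay within 1.5-fold, and the median log2 ratio was -0.04. In the ANKRD1-high cells 47 genes (0.767%) were at least 2-fold higher, and 4 genes (0.0653%) were at least 2-fold lower: HVCN1, TXNIP, NDUFA4L2 and PLK1. At 1.5-fold the shares were 2.82% higher and 0.946% lower. The ANKRD1-high cells thus carried many more higher than lower genes past either limit. Ratios below are CPM in ANKRD1-high cells over CPM in cells without ANKRD1 UMIs, with their 95% interval.

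**Figure D2:**
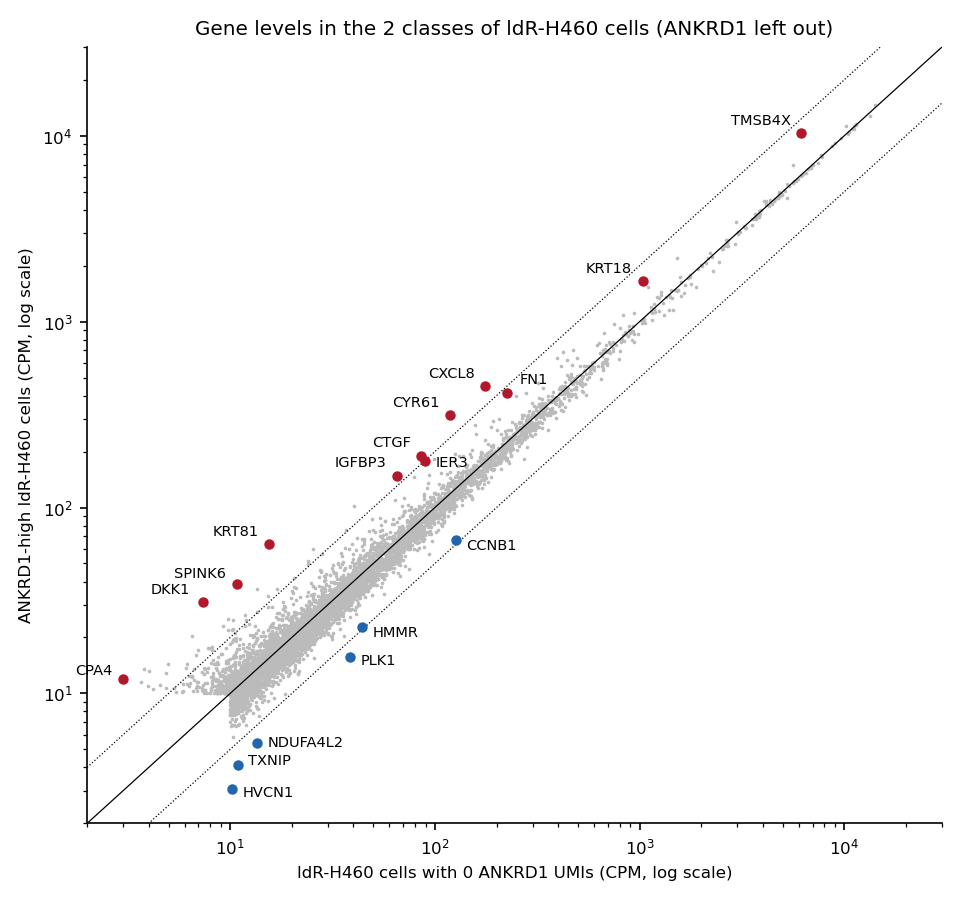
Level of each gene that reached 10 CPM in the higher class, in ANKRD1-high cells (vertical) and in cells with 0 ANKRD1 UMIs (horizontal) of ldR-H460, in CPM on log scales, with the line of equality and dotted lines at 2-fold. Red and blue points are named genes above and below equality; DKK1 (31.0 against 7.35 CPM) and KRT81 (63.5 against 15.5 CPM) lie far above the upper dotted line, and HVCN1 (3.07 against 10.2 CPM) far below the lower one.

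Among genes that reached 10 CPM the highest ratio was that of DKK1, a secreted antagonist of WNT signalling, with 31.0 CPM in ANKRD1-high cells and 7.35 CPM in cells without ANKRD1 UMIs (4.21-fold, 3.54 to 5.01). KRT81, a hair keratin, stood at 63.5 and 15.5 CPM (4.09-fold, 3.63 to 4.61), though its near copy KRT86 can share its reads. CPA4, a secreted carboxypeptidase, stood at 11.98 and 2.98 CPM (4.02-fold, 3.04 to 5.31). CPA4 had an interval that includes 1 in G1 cells (1.07-fold, 0.62 to 1.80) and in cluster 1 (1.20-fold, 0.88 to 1.64), a cluster described further on that held 104 of its UMIs in ANKRD1-high cells (92.0%). SPINK6, an inhibitor of kallikrein proteases, was 3.59-fold higher, and PLAU, the urokinase that activates plasminogen, was 3.28-fold higher. The others were SERTAD4 (3.55-fold), CSRNP1 (3.14-fold), the small heat shock protein HSPB3 (3.13-fold), LY6K (2.88-fold), the focal adhesion scaffold NEDD9 (2.79-fold), GPRC5A (2.69-fold) and C8orf4 (2.64-fold). SERTAD4 overlaps an antisense gene, so its count is uncertain. In cluster 1 PLAU (1.05-fold), LY6K (0.97-fold), SERTAD4 (1.26-fold), NEDD9 (1.37-fold), CSRNP1 (1.47-fold) and C8orf4 (1.38-fold) also had intervals that include 1. The intervals of DKK1, KRT81, SPINK6, HSPB3 and GPRC5A lay above 1 there. Of the genes set as markers of the cells, LOXL2, a lysyl oxidase that crosslinks collagen, stood at 17.1 and 8.11 CPM (2.11-fold, 1.72 to 2.57). In cluster 1 its ratio was 0.86 (0.65 to 1.14). FN1, the matrix protein fibronectin, stood at 415 and 226 CPM (1.84-fold, 1.77 to 1.91). IGFBP7 stood at 13.4 and 9.85 CPM (1.36-fold, 1.09 to 1.67), under the 1.5-fold limit. Its direction depended on the cells compared. In G1 cells it stood at 27.8 and 38.5 CPM (0.72-fold, 0.52 to 0.99), and in cluster 1, which held 124 of its UMIs in ANKRD1-high cells (98.4%), at 26.3 and 68.7 CPM (0.38-fold, 0.31 to 0.48).

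Genes listed as targets of YAP and TAZ were higher as a group. Of 26 measured targets other than ANKRD1, 13 were at least 1.5-fold higher and none was lower, with a median log2 ratio of 0.60. Measured means 1 CPM or more in the higher class; among all 11728 such genes 6.39% were at least 1.5-fold higher, 4.14% lower, and the median log2 ratio was -0.03. CYR61, a secreted matricellular protein, stood at 313 and 119 CPM (2.63-fold, 2.51 to 2.76). CTGF, its relative, stood at 190 and 85.5 CPM (2.22-fold, 2.09 to 2.35). IGFBP3, which binds insulin-like growth factors, stood at 148 and 65.3 CPM (2.27-fold, 2.12 to 2.43). The others past 1.5-fold included AMOTL2 (1.76-fold) and LATS2 (1.54-fold), both negative regulators of YAP, and DOCK5 (1.87-fold), CRIM1 (1.77-fold) and NT5E (2.57-fold at 4.03 CPM). Per cell, at 5000 UMIs, CYR61 and CTGF together had a lowest, median and highest count of 0, 2 and 22 UMIs in 719 ANKRD1-high cells and of 0, 1 and 30 UMIs in 2461 cells without ANKRD1 UMIs. The classes therefore overlapped cell by cell. Neither gene had a UMI in 16.8% of the ANKRD1-high cells and in 48.6% of the cells without ANKRD1 UMIs.

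The genes of the pathway itself moved less than its targets. Of 21 measured components 2 were at least 1.5-fold higher and none lower, with a median log2 ratio of 0.16, and both, AMOTL2 and LATS2, are also on the target list. The coactivator YAP1 had 10.1 CPM in ANKRD1-high cells and 10.6 CPM in cells without ANKRD1 UMIs (0.95-fold, 0.75 to 1.19). WWTR1, which encodes TAZ, had 43.3 and 35.8 CPM (1.21-fold, 1.08 to 1.35). Of the DNA-binding partners, TEAD1 had 22.6 and 16.8 CPM (1.35-fold, 1.15 to 1.58) and TEAD4 had 21.2 and 25.5 CPM (0.83-fold, 0.71 to 0.97). TEAD2 (0.86-fold, 0.63 to 1.14) and TEAD3 (1.12-fold, 0.57 to 2.08) had intervals that include 1. ANKRD2, a muscle relative of ANKRD1, stood at 21.1 and 10.5 CPM (2.00-fold, 1.67 to 2.39), and MYPN, which encodes the ANKRD1-binding sarcomere protein myopalladin, at 2.44 and 1.27 CPM (1.93-fold, 1.11 to 3.28).

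Genes of the matrix and of its turnover were higher in part. Of 25 extracellular matrix genes 8 were at least 1.5-fold higher and none lower (median log2 ratio 0.35). MFGE8, a secreted integrin ligand, stood at 36.3 and 16.9 CPM (2.15-fold), and THBS1, the matricellular thrombospondin, at 7.95 and 1.87 CPM (4.26-fold). Of 16 crosslinking and turnover genes 4 were higher and none lower (0.23), namely LOXL2, PLAU, TGM2 and SERPINE2. In G1 cells alone the median of this list was -0.09. Of 24 genes of the TGF-beta group 5 were higher and none lower (0.29), including the secreted glycoprotein FSTL1 (22.3 and 10.3 CPM, 2.16-fold) and the cytokine GDF15 (60.3 and 36.3 CPM, 1.66-fold). Of 9 genes around the insulin-like growth factor binding proteins, IGFBP3 and IGFBP4 (21.8 and 10.2 CPM, 2.14-fold) were higher and IGFBP5 stood at 0.742 and 1.15 CPM (0.65-fold, 0.24 to 1.47), with 7 UMIs in the ANKRD1-high cells. The median of these 9 was -0.17 in G1 cells. Of 19 focal adhesion genes 4 were higher and none lower (0.23), among them PARVA (1.76-fold), which links integrins to actin. The actin and SRF list had 2 of 29 past 1.5-fold, CNN3 (1.69-fold) and FHL2 (4.66 and 2.92 CPM), and a median log2 ratio of 0.23. The other 27 stayed within 1.5-fold. Within cluster 1 MFGE8 was 0.98-fold (0.81 to 1.19), FSTL1 0.86-fold (0.68 to 1.09) and SERPINE2 0.89-fold (0.82 to 0.96). There IGFBP3 was 1.18-fold (1.07 to 1.31), IGFBP4 1.43-fold (1.08 to 1.90), GDF15 1.17-fold (0.995 to 1.37) and PARVA 1.13-fold (0.77 to 1.66).

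Part of the epithelial list was also higher, and the mesenchymal list was mixed. Of 18 epithelial genes 7 were at least 1.5-fold higher and 1 lower (median log2 ratio 0.20). The 7 were KRT7, KRT8, KRT18, KRT80, KRT81, the desmosomal PKP2 and the tight junction gene CLDN1 (17.6 and 7.89 CPM, 2.23-fold). CLDN1 was 4.67-fold (2.57 to 8.25) in cluster 2, with intervals that include 1 in clusters 0, 1 and 3 (1.64, 1.33 and 1.59). KRT8 and KRT18 form the main keratin pair of simple epithelia, and their ratios were 1.63 (1.58 to 1.68) and 1.597 (1.57 to 1.63). KRT19 and the junction genes DSP, DSG2, JUP, TJP1, CLDN4, PKP3 and CLDN3 stayed within 1.5-fold, with log2 ratios from -0.48 for CLDN3 to 0.25 for CLDN4. Of 12 mesenchymal genes FN1 and AXL were higher and CDH11 lower, at 7.53 and 13.8 CPM (0.54-fold, 0.42 to 0.70). Cluster 4, described further on, held 210 of the CDH11 UMIs in cells without ANKRD1 UMIs (45.8%). In clusters 0, 1 and 2 the CDH11 ratios of 0.73, 0.63 and 0.69 had intervals that include 1. In cluster 3 CDH11 was 0.27-fold (0.055 to 0.84), with 3 UMIs in the ANKRD1-high cells. The neural list had 3 of 14 higher and 3 lower.

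Part of the genes that respond quickly to growth factor and stress signals were higher over all cells, and less so in G1 cells. Of 20 immediate early genes 9 were at least 1.5-fold higher and none lower, with a median log2 ratio of 0.47. JUN, a subunit of AP-1, stood at 33.3 and 15.3 CPM (2.17-fold, 1.88 to 2.50), and IER3 at 178 and 89.6 CPM (1.98-fold, 1.87 to 2.10). Of 17 genes downstream of ERK 7 were higher and none lower (0.25), including DUSP6, a phosphatase that acts on ERK, at 41.8 and 20.6 CPM (2.03-fold, 1.79 to 2.30), and SPRY2 (1.87-fold). IER3 is on both lists. In G1 cells alone the medians of the 2 lists were 0.04 and 0.003, and JUN was 1.27-fold (0.96 to 1.66). Within cluster 1 JUN was 1.05-fold (0.86 to 1.28) and IER3 1.07-fold (0.97 to 1.17), while DUSP6 was 1.75-fold (1.39 to 2.22). Of 20 p53 targets 4 were higher and 1 lower (0.20), with the cell cycle inhibitor CDKN1A at 30.9 and 18.1 CPM (1.70-fold, 1.47 to 1.96) and in G1 cells at 50.3 and 49.9 CPM (1.01-fold, 0.78 to 1.29). Of 21 inflammatory genes 7 were higher and 1 lower (0.26). The neutrophil chemokine CXCL8 stood at 451 and 176 CPM (2.56-fold, 2.46 to 2.66), the cytokine IL6 at 17.1 and 6.99 CPM (2.44-fold, 1.98 to 3.00), IL18 at 49.7 and 23.9 CPM (2.08-fold, 1.85 to 2.34) and CXCL2 at 56.1 and 28.1 CPM (1.99-fold, 1.79 to 2.22).

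Other stress and drug-related groups showed few genes past the limit. Of 24 genes of amino acid and unfolded protein stress, ATF3 and PPP1R15A were higher and DDIT4 lower, with a median log2 ratio of -0.09. DDIT4 stood at 34.5 and 56.4 CPM (0.61-fold, 0.54 to 0.69). It was 0.47-fold (0.38 to 0.57) in G2/M cells. The DDIT4 interval included 1 in G1 cells (0.90-fold, 0.67 to 1.20), S cells (0.84-fold, 0.69 to 1.005) and cluster 0 (0.92-fold, 0.70 to 1.19). It stayed below 1 in clusters 1, 2 and 3 (0.74, 0.61 and 0.59). None of 13 heat shock genes passed 1.5-fold in either direction (median log2 ratio -0.24), and none of 25 targets of the oxidative stress factor NRF2 (0.02), 13 mitochondrially encoded genes (0.01) or 11 Notch genes (0.12). Of 18 drug efflux and detoxification genes 2 were higher and none lower (0.08): MVP, the major vault protein, at 3.29 and 1.24 CPM, and CYP24A1 at 5.62 and 3.68 CPM. Of 15 WNT genes DKK1 and FZD2 were higher and none lower (0.05). Of 8 stem cell genes CD24 was higher, at 15.1 and 8.20 CPM, and SOX2 lower, at 2.65 and 7.20 CPM. In clusters 0, 1, 2 and 3 the CD24 ratios of 1.04, 1.18, 1.58 and 1.17 had intervals that include 1.

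**Figure D3:**
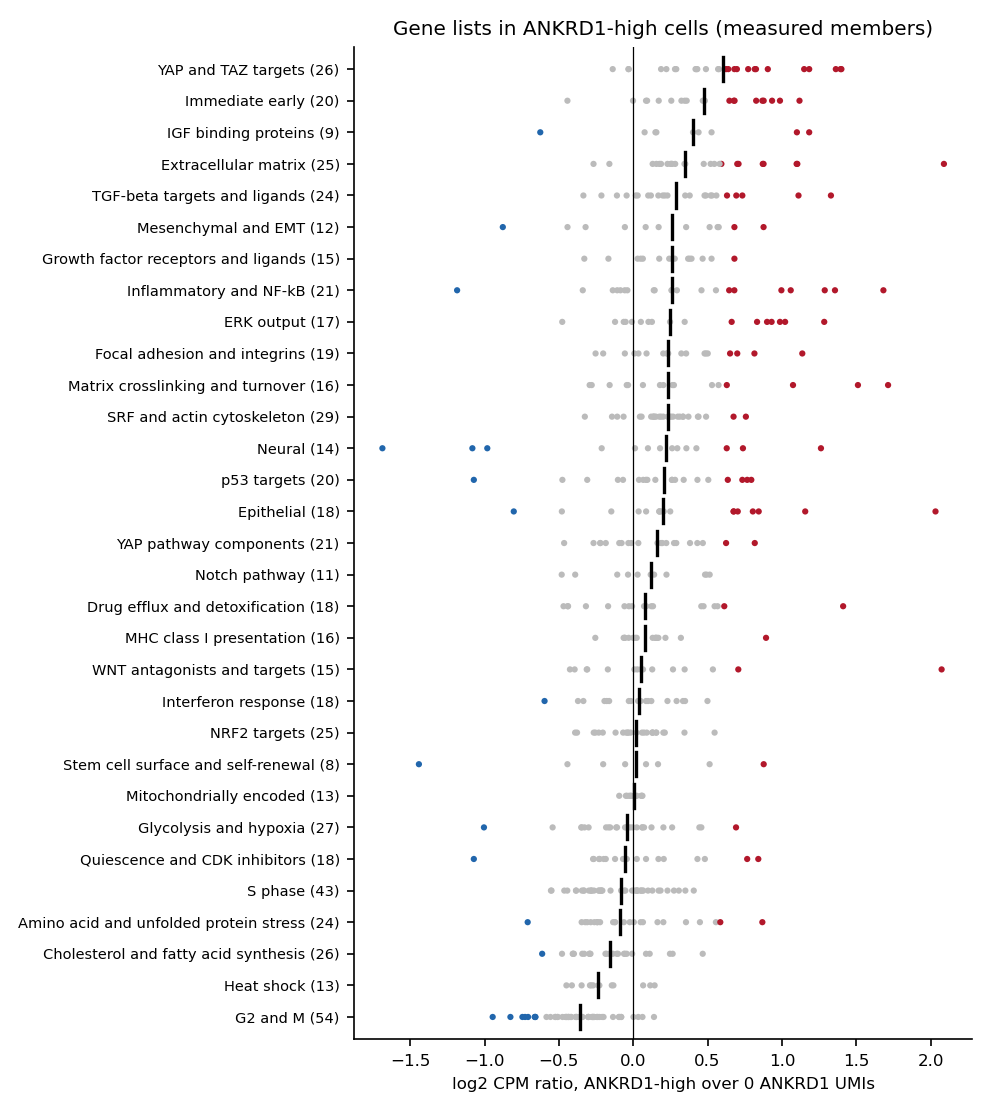
Each row is a gene list with its number of measured members, each point a member's log2 CPM ratio of ANKRD1-high cells over cells with 0 ANKRD1 UMIs, red at 1.5-fold higher or more, blue at 1.5-fold lower or more, and the black bar the list's median. The YAP and TAZ targets have the highest median (0.60) and the G2 and M list the lowest (-0.36) of the lists with at least 8 measured members.

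Mitotic genes were lower. Of 54 genes of G2 and M 8 were at least 1.5-fold lower and none was higher, with a median log2 ratio of -0.36, while of 43 S phase genes none passed 1.5-fold (-0.08). PLK1, the polo-like kinase that drives entry into mitosis, stood at 15.8 and 38.4 CPM (0.41-fold, 0.34 to 0.49). CCNB1, cyclin B1, stood at 67.0 and 126 CPM (0.53-fold, 0.49 to 0.58), and HMMR at 22.9 and 44.1 CPM (0.52-fold, 0.45 to 0.60). LBR, the lamin B receptor, was 0.56-fold and GPSM2, which orients the spindle, 0.57-fold. PLK1, CCNB1 and GPSM2 are not on the list. The rest of the 12 lowest were HVCN1, a voltage-gated proton channel, at 3.07 and 10.2 CPM (0.30-fold, 0.20 to 0.44), TXNIP, which binds thioredoxin, at 4.13 and 10.9 CPM (0.38-fold, 0.27 to 0.53), and NDUFA4L2 at 5.41 and 13.6 CPM (0.40-fold, 0.29 to 0.53), with FAM83A (0.54-fold), CDH11, TMEM52 (0.57-fold) and the lipid droplet coat gene PLIN2 (0.58-fold). Cluster 5 of the cells, described further on, held 362 of the NDUFA4L2 UMIs in cells without ANKRD1 (80.4%). In clusters 0, 1, 2 and 3 its ratios were 1.64, 0.59, 1.73 and 0.97, each with an interval that includes 1. Cluster 5 also held 160 of the PLIN2 UMIs in cells without ANKRD1 UMIs (29.4%). In clusters 0, 1, 2 and 3 the intervals also included 1 for PLIN2 (1.06, 0.83, 0.48 and 0.71) and TMEM52 (0.69, 1.19, 0.82 and 0.44). HVCN1 was below 1-fold in these 4 clusters (0.57, 0.39, 0.44 and 0.65), but its interval stayed below 1 only in cluster 1 (0.16 to 0.91). TXNIP was also below 1-fold in them (0.50, 0.73, 0.27 and 0.29), with an interval that includes 1 in cluster 1 (0.39 to 1.35). Its value in cluster 3 rests on 2 UMIs in the ANKRD1-high cells, with 3 put in their place.

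Phases assigned from the S and G2/M lists at 5000 UMIs per cell differed in the same way. G1 was assigned to 26.3% (23.1 to 29.7%) of 719 ANKRD1-high cells and 12.4% (11.1 to 13.7%) of 2461 cells without ANKRD1 UMIs. G2/M was assigned to 28.2% (24.97 to 31.7%) and 43.4% (41.5 to 45.4%), and S to 45.5% and 44.2%. Within each phase the genes higher in the ANKRD1-high cells were mostly still higher. Of the 53 named genes at least 1.5-fold higher over all cells, 51 were above 1-fold in G1 cells, 53 in S and 53 in G2/M cells. In G1 cells 28 of the 53 passed 1.5-fold. The median log2 ratio of the YAP and TAZ targets was 0.48, 0.56 and 0.63 in the same order. CYR61 stood at 389 and 183 CPM in G1 cells (2.13-fold) and at 287 and 104 CPM in G2/M cells (2.77-fold). The median log2 ratio of the G2 and M list, -0.36 over all cells, was -0.52 in G1, -0.07 in S and -0.11 in G2/M cells. The phases were themselves assigned with this list. The 15 named genes at least 1.5-fold lower were below 1-fold in each phase. Both sets were chosen by their ratios in these same cells. Such counts, here and for ANKRD1 classes and clusters below, are therefore a description.

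The levels followed the ANKRD1 count beyond the threshold. The YAP and TAZ targets other than ANKRD1 summed to 617 CPM in cells with 0 ANKRD1 UMIs, 835 CPM with 1 or 2, 1075 CPM with 3 to 5 and 1326 CPM with 6 or more. CYR61 stood at 119, 193, 282 and 382 CPM in the same order, and CTGF at 85.5, 126, 167 and 240 CPM. The G2 and M list summed to 4928, 4512, 4007 and 3739 CPM. Of the 53 named higher genes 42 were in rising order over the 4 classes, and 36 with cells thinned to 5000 UMIs. Of the 15 named lower genes 11 were in falling order, and 7 thinned. Not every gene rose to the top class. DKK1 had 7.35, 15.1, 31.6 and 29.4 CPM, and CPA4 2.98, 5.47, 12.04 and 11.8 CPM. CXCL8 (176, 242, 347 and 678 CPM) and CXCL2 (28.1, 31.7, 36.1 and 99.8 CPM) showed their main step between the 2 highest classes. Median depth was 12569, 12660.5, 12284 and 12672.5 UMIs in the 4 classes.

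**Figure D4:**
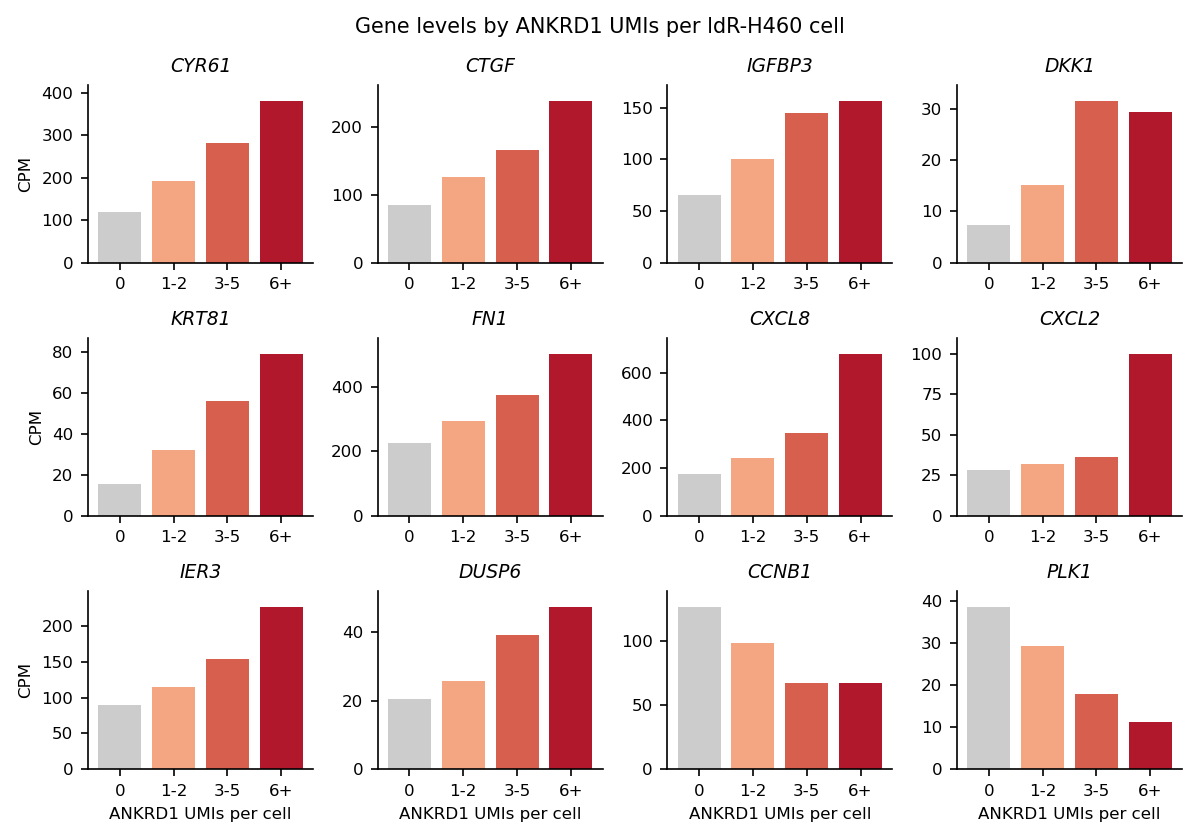
CPM of 12 named genes in ldR-H460 cells with 0, 1 to 2, 3 to 5 and 6 or more ANKRD1 UMIs, each panel on its own linear scale from 0. CYR61, CTGF, KRT81, FN1 and CXCL8 are highest in the class of 6 or more, DKK1 levels off at 31.6 and 29.4 CPM, and CCNB1 and PLK1 are highest in cells with 0 ANKRD1 UMIs.

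Over the 4521 ldR-H460 cells thinned to 5000 UMIs, the genes whose counts were most like ANKRD1 by Spearman's rank correlation were TMSB4X (0.34), CYR61 (0.26), S100A6 (0.23), LGALS1 (0.22), CXCL8 (0.20), FN1 (0.19), CTGF (0.17) and KRT18 (0.17). The cells share 1 library, and all values are weak for such sparse counts, so they are a description. TMSB4X, which encodes the actin-binding thymosin beta 4, stood at 10353 CPM in ANKRD1-high cells and 6169 CPM in cells without ANKRD1 UMIs (1.68-fold, 1.67 to 1.69). In clusters 0, 1, 2 and 3 the TMSB4X ratios were 1.27, 1.08, 1.43 and 1.32. In cluster 1 S100A6 (0.94-fold, 0.92 to 0.96) and LGALS1 (0.92-fold, 0.90 to 0.95) were lower in ANKRD1-high cells. In clusters 0, 2 and 3 S100A6 had ratios of 1.04, 1.25 and 1.05, and LGALS1 of 1.04, 1.22 and 1.15. The most negative correlation was that of HSPD1 (-0.21), a mitochondrial chaperone.

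The ANKRD1-high cells were unevenly spread over 7 clusters of the ldR-H460 cells, made with ANKRD1 left out of the clustering genes. Cluster 1, of 1264 cells, held 418 of the 729 (57.3%), which were 33.1% (30.5 to 35.7%) of its cells. Its leading genes include SPINK6, FN1, KRT81 and CYR61, and 42.1% of its cells were assigned G1. Cluster 6, of 91 cells and led by the chemokine and acute phase genes CCL3L3, SAA1 and CCL20, had a like share of 34.1% (24.5 to 44.7%), or 31 cells. Clusters 0, 2 and 3, in which 17.6%, 55.4% and 85.6% of the cells were assigned G2/M, had ANKRD1-high shares of 10.2%, 6.55% and 9.33%. Cluster 4, led by CDH11 and FGF13, had 3 ANKRD1-high cells of 196 (1.53%), and cluster 5, led by NDUFA4L2 and PLIN2, had 4 of 117 (3.42%). The clusters were made from the genes that also separate the classes, so their leading genes are a description.

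**Figure D5:**
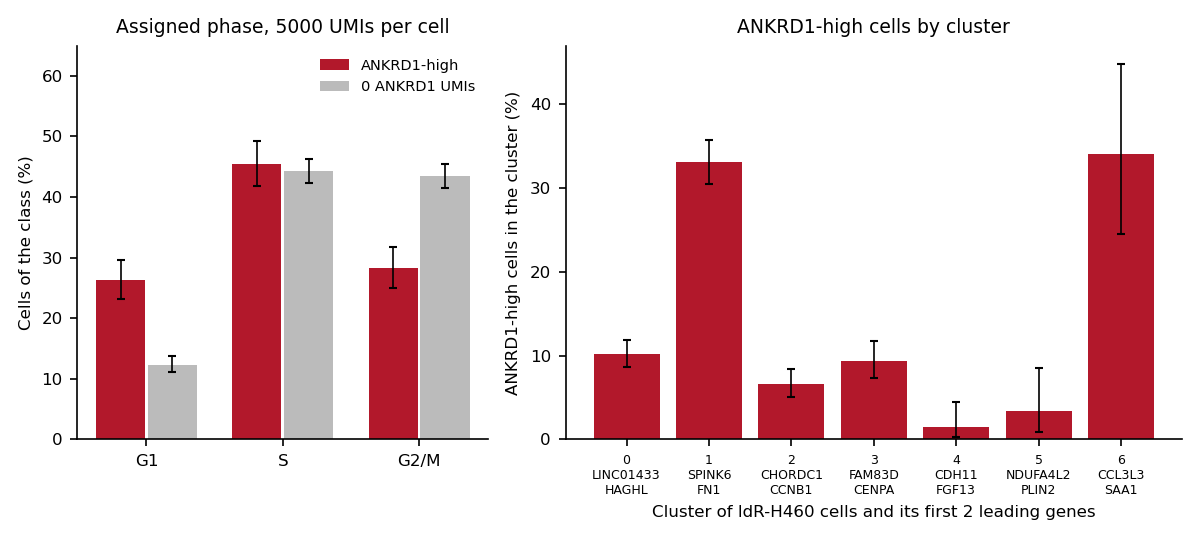
Left, share of ANKRD1-high cells (red) and of cells with 0 ANKRD1 UMIs (grey) assigned to each phase; right, share of each cluster's cells that are ANKRD1-high; bars are percent with 95% exact Clopper-Pearson intervals for counting error. G1 is 26.3% against 12.4%, and clusters 1 and 6 stand at 33.1% and 34.1%.

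Inside cluster 1 the differences were smaller, and inside cluster 2 many were larger. In cluster 1 the ratio was below that over all cells for 52 of the 53 named higher genes, and in cluster 2 it was above it for 31. Within cluster 1, between its 418 ANKRD1-high cells and its 409 cells without ANKRD1 UMIs, 41 of the 53 named higher genes were above 1-fold and the YAP and TAZ targets had a median log2 ratio of 0.15. CYR61 stood at 418 and 301 CPM there (1.39-fold, 1.29 to 1.49), CTGF at 254 and 204 CPM (1.25-fold, 1.14 to 1.37), DKK1 at 52.4 and 40.0 CPM (1.31-fold, 1.07 to 1.61) and KRT81 at 90.2 and 37.2 CPM (2.43-fold, 2.00 to 2.95). FN1 was among the genes that went the other way. It had 641 CPM in the ANKRD1-high cells of cluster 1 and 837 CPM in the cluster's cells without ANKRD1 UMIs (0.77-fold, 0.73 to 0.80). In clusters 0, 2 and 3 the YAP and TAZ medians were 0.29, 0.35 and 0.50, with 50, 52 and 47 of the 53 genes above 1-fold. CYR61 was 2.01-fold higher in cluster 0 (208 and 104 CPM) and 2.59-fold higher in cluster 2 (196 and 75.4 CPM). In cluster 2 CXCL8 stood at 561 and 180 CPM (3.11-fold, 2.84 to 3.41), CTGF at 152 and 61.9 CPM (2.46-fold, 2.06 to 2.92) and DKK1 at 11.5 and 1.13 CPM (10.2-fold, 4.22 to 25.2). The DKK1 value rests on 13 and 11 UMIs. The FN1 ratio over all cells, 1.84, thus stood above its ratios of 1.16, 0.77, 1.26 and 1.47 in clusters 0, 1, 2 and 3.

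The chemokine genes had a further source of spread. The 31 ANKRD1-high cells of cluster 6 were 4.25% of the class, and the 32 cells without ANKRD1 UMIs in that cluster were 1.22% of theirs. They held 10.7% of the CXCL8, 17.0% of the CXCL2 and 16.8% of the IL6 UMIs of the ANKRD1-high cells. With cluster 6 left out, CXCL8 stood at 423 and 161 CPM (2.63-fold, 2.52 to 2.74), CXCL2 at 48.9 and 23.9 CPM (2.04-fold, 1.81 to 2.30) and IL6 at 14.9 and 6.35 CPM (2.35-fold, 1.88 to 2.94), about as over all cells. Within cluster 6, CXCL8 was at 990 CPM in ANKRD1-high cells and 1306 CPM in cells without ANKRD1 UMIs. Within cluster 1 IL6 was 1.07-fold (0.78 to 1.47). CXCL8 was 1.49-fold (1.40 to 1.59) there, CXCL2 1.33-fold (1.11 to 1.61) and IL18 1.27-fold (1.06 to 1.54). In clusters 0, 2 and 3 the IL6 ratios were 4.05, 1.85 and 7.30, with an interval that includes 1 in cluster 2.

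The same contrast was made in the other libraries, whose cells the rule did not use. In mdR-H460 the 69 cells with at least 3 ANKRD1 UMIs were set against 4186 cells with none. Among genes that reached 100 CPM in the higher class, their highest ratios were those of C11orf96 (37.3-fold), the stress gene DDIT3 (31.9-fold, 1386 and 43.5 CPM), CYP1A1 (31.4-fold) and TXNIP (29.1-fold). CSRNP1, one of the 12 highest of ldR-H460, was 22.9-fold higher (167 and 7.32 CPM), and 10 of those 12 were at least 1.5-fold higher. The class is small, with 1040264 UMIs and a median of 14693 UMIs per cell, against 13545 in cells with none. Of all genes at 1 CPM or more, 25.2% were at least 1.5-fold higher in it. Of 26 YAP and TAZ targets 18 were at least 1.5-fold higher and 1 lower, with a median log2 ratio of 0.99, and CYR61 stood at 503 and 119 CPM (4.22-fold, 3.85 to 4.61). DKK1 stood at 32.7 and 5.72 CPM (5.72-fold, 3.90 to 8.14). FN1 (205 and 192 CPM, 1.07-fold, 0.93 to 1.22) and KRT81 (33.6 and 30.3 CPM, 1.11-fold, 0.77 to 1.55) had intervals that include 1. Of the 53 named genes, 34 were at least 1.5-fold higher.

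In mdR-H460 25 of the 69 cells had at least 500 CPM of DDIT3, against none of the 729 in ldR-H460. Of 25 genes of amino acid and unfolded protein stress 22 were at least 1.5-fold higher in the 69 cells. The cells past that DDIT3 limit, which was chosen after the data were seen, were taken out of both classes. This left 44 cells, in which 3 of the 25 stress genes were at least 1.5-fold higher. The 44 cells were deeper, at a median of 18025 UMIs against 13700 in cells without ANKRD1 UMIs. All genes at 1 CPM or more were then at least 1.5-fold higher in 10.2% of cases, and the YAP and TAZ targets in 12 of 26 with a median log2 ratio of 0.51. CYR61 stood at 381 and 117 CPM in these cells (3.25-fold, 2.88 to 3.66), DKK1 at 15.9 and 5.50 CPM (2.90-fold, 1.48 to 5.14) and CPA4 at 21.3 and 5.61 CPM (3.79-fold, 2.14 to 6.24). Of the 53 named genes, 23 were at least 1.5-fold higher.

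In H460 the rule found too few cells, so the 122 cells with at least 1 ANKRD1 UMI were set against the 4045 with none. Their median depths were 17038 and 15573 UMIs. The YAP and TAZ targets were at least 1.5-fold higher in 9 of 27 and lower in 1, with a median log2 ratio of 0.46, beside 10.2% of all genes at 1 CPM or more. CYR61 stood at 201 and 104 CPM (1.94-fold, 1.76 to 2.15), CPA4 at 16.4 and 5.43 CPM (3.02-fold, 2.06 to 4.30) and CTGF at 219 and 153 CPM (1.44-fold, 1.30 to 1.58). IGFBP3 (132 and 130 CPM, 1.01-fold, 0.89 to 1.14) and DKK1 (20.2 and 16.7 CPM, 1.21-fold, 0.87 to 1.65) had intervals that include 1. Of the 53 named genes, 14 were at least 1.5-fold higher. With the same limit of 1 UMI, 380 mdR-H460 cells had a YAP and TAZ median log2 ratio of 0.56, with 13 of 27 at least 1.5-fold higher beside 13.3% of all genes, and CYR61 at 2.41-fold. In ldR-H460, 2107 cells had a median of 0.41, with 10 of 26 higher beside 2.82%, and CYR61 at 1.97-fold. At least 1.5-fold higher were 36 of the 53 named genes in mdR-H460 and 32 in ldR-H460, the library in which these genes were chosen. HVCN1 was lower at this limit in each library, at 7.22 and 18.0 CPM in H460 (0.40-fold, 0.22 to 0.67), 12.2 and 17.4 CPM in mdR-H460 (0.70-fold, 0.54 to 0.89) and 4.01 and 10.2 CPM in ldR-H460 (0.39-fold, 0.31 to 0.49). The difference between the libraries was not tested.

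The levels in the ANKRD1-high cells can be set beside those of the whole libraries. CTGF had 190 CPM in them, 155 CPM in H460, 49.3 CPM in mdR-H460 and 114 CPM in ldR-H460. IGFBP3 had 148 CPM in them, against 130, 32.2 and 88.6 CPM in the same libraries. CXCL8, at 451 CPM in the ANKRD1-high cells, was below its level in H460 (1048 CPM) and mdR-H460 (747 CPM) and above that in ldR-H460 (239 CPM). TMSB4X, at 10353 CPM, was above all 3 (2819, 5734 and 7441 CPM). KRT81 had 63.5 CPM in the ANKRD1-high cells, against 8.10 CPM in H460, 31.9 CPM in mdR-H460 and 27.9 CPM in ldR-H460.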

How the data were processed

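The series holds 1 single-cell library for each of 3 cultures, made with Chromium 3' chemistry, per the labels' protocols. The submitters' processing notes name Cell Ranger 3.0.2, Seurat 3.0 and GRCh38 without their roles, and no source used here gives the annotation release. The authors deposited UMI counts, not normalized, for each gene symbol in each cell kept after their quality filtering. Symbols missing from a table were set to 0.

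UMIs of the ANKRD1-high cells and of the cells with 0 ANKRD1 UMIs were summed and divided by the class total to give CPM. Their ratio has an exact 95% interval from the binomial. Where a class had under 3 UMIs, 3 stood in its place and bounded the ratio in 1 direction. Genes that reached 10 CPM in the higher class were counted at 2-fold, and members of 33 lists at 1 CPM or more at 1.5-fold. Phases and Leiden clusters (resolution 0.5, 2000 variable genes, 30 components, 15 neighbours, ANKRD1 left out) came from scanpy 1.11.5. The counting step was tested on simulated data.

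Genes are named by rule: the cell markers, the 12 highest and 12 lowest ratios, up to 4 genes of each list with the largest ratio past 1.5-fold at 10 CPM, the YAP and TEAD genes, and the 8 genes most like ANKRD1. Others named from the lists were chosen after their values were seen. The rule for the cells and the lists were chosen with earlier results of these data known. The alternatives were edgeR 4.0.16 TMM and DESeq2 1.42.0 size factors, other totals and weights, thinning to 5000 UMIs, other thresholds, and subsets of cells. No p-value was computed, since there is 1 library per culture. The classes hold 9432377 UMIs (ANKRD1-high) and 33186744 UMIs (0 ANKRD1 UMIs), so that 10 CPM stands for many UMIs in either. PCR and cell capture error are not in the intervals.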

Additional observations from a re-analysis of the deposited data

Results flagged for a closer look

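In the cells with at least 3 ANKRD1 UMIs, 2 stress-responsive genes lay on opposite sides of the cells without ANKRD1 UMIs in mdR-H460 and ldR-H460. DDIT4, an inhibitor of mTORC1 signalling, had a log2 ratio of 4.29 in mdR-H460 and -0.71 in ldR-H460. Within ldR-H460 DDIT4 was 0.47-fold (0.38 to 0.57) in G2/M cells, with intervals that include 1 in G1 (0.90-fold) and S cells (0.84-fold). TXNIP had a log2 ratio of 4.86 in mdR-H460 and -1.40 in ldR-H460. The difference between the cultures was not tested, since each is 1 library. Without the mdR-H460 cells at 500 CPM of DDIT3 or more, the mdR-H460 log2 ratios were 0.07 for DDIT4 and 0.17 for TXNIP.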

How the results depend on the processing

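The counts depended mainly on the minimum level and on which cells were compared. For genes at least 2-fold higher in ANKRD1-high cells (47), a limit of 5 ANKRD1 UMIs gave 86, a minimum of 20 CPM gave 27 and no minimum gave 679. For genes at least 2-fold lower in ANKRD1-high cells (4), totals that leave out ribosomal protein and mitochondrially encoded UMIs gave 8, thinning to 5000 UMIs 13, a limit of 5 ANKRD1 UMIs 17, G1 cells alone 54, a minimum of 5 CPM 11, of 20 CPM 1, and no minimum 194. The share of ldR-H460 cells meeting the ANKRD1 rule (15.4%) was 24.5% at 2 UMIs, 6.56% at 5 UMIs and 5.82% with cells thinned. The median log2 ratio of the YAP and TAZ target list without ANKRD1 (0.60) lay between 0.48 and 0.69 over the settings that changed scaling, cells or depth. Single clusters were not among these settings. Of the 53 named higher genes all kept their direction in each of these settings except G1 cells, where ATF3 (-0.18) and NES (-0.14) turned lower and 28 of the 53 were past 1.5-fold. The cause was not tested. In G1 cells the list medians were also 0.04 for immediate early genes, 0.003 for ERK output, -0.09 for matrix crosslinking and turnover and -0.17 for IGF binding proteins, and the log2 ratio of IGFBP7 (0.44) was -0.47. The 15 named lower genes kept their direction in all of these settings. Within clusters 0, 1, 2 and 3 the YAP and TAZ median was 0.29, 0.15, 0.35 and 0.50. Of the 53 named higher genes 50, 41, 52 and 47 were above 1-fold in these clusters. Of the 15 named lower genes 13, 13, 14 and 15 were below 1-fold. The G2 and M median was -0.07, -0.16, -0.15 and -0.15 in the same clusters. Leaving out cluster 6 was added after the data were seen. No paired analysis was possible because each culture is 1 library. Genes at 1 CPM rest on few UMIs in the smaller class, which limits single list members.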
